A study of Arabidopsis thaliana with 9 samples.

Results

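A set of 6 defence-related genes of Arabidopsis thaliana was followed in the accessions Col and C24 and in their F1 hybrid. They were CHI (AT2G43570, a chitinase), AT5G55450 (a lipid transfer protein), GRX480 (AT1G28480, a glutaredoxin), AT2G44380, AT3G48640 and, for contrast, the defensin gene PDF1.2b (AT2G26020). Each of the 6 is named by 1 probe set, out of 22746 on the arrays, and all 6 passed the filter on dim probe sets. Shoots of whole seedlings, with the roots removed, were taken at 10 DAS (the labels' unit of age) from plants kept at 22 degrees. The 3 groups were Col, C24 and the F1 of Col and C24, with 3 arrays each, 1 per biological replicate, and the labels give no treatment, no transgene and no direction of the cross. They do not say how many plants made up a sample, so p-values measure the spread between these samples.

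Salicylic acid is the plant hormone of resistance to pathogens that feed on living tissue. It acts through the coactivator NPR1 and TGA transcription factors, and raises pathogenesis-related proteins such as chitinases, which cut the chitin of fungal walls. Jasmonate and ethylene together drive another set of defence genes, among them the PDF1.2 defensins, and salicylate is known to hold that branch down. GRX480 was described as a salicylate-induced glutaredoxin that binds TGA factors and, when overproduced, represses PDF1.2.

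The genes were selected on their levels in these arrays. CHI, AT5G55450, GRX480, AT2G44380 and AT3G48640 were chosen by a higher signal in C24 than in Col, CHI also by its low signal in F1, and PDF1.2b by a signal in F1 above the mean of the parents. Those differences are therefore given as a description without a test. The F1 signals of AT5G55450, GRX480, AT2G44380 and AT3G48640 were not used in the choice, although the parental arrays they are compared with were, so these tests are not fully independent of the choice. They were made in one limma fit over 15922 probe sets. Signals are linear intensities after quantile normalization. They come from whole shoots, in which fewer expressing cells and less RNA per cell cannot be told apart. A dim signal was not separated from background, since no detection calls were used, and the filter level was a signal of 11.1. A ratio or log2 difference to a group near or under that level describes the signals and is no measured fold of RNA.

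Between arrays of the same group the log2 signals had correlations of 0.944 to 0.971. The 6 named markers of green shoot (RCA, PRK, PSAN, SBPASE, LHCB4.1 and LHCB4.2) lay between 2912 and 6545 on every array. Of 10 named root markers 7 were under the filter. PYK10, a beta-glucosidase gene, was far above the filter on every array, at 236 to 307 in Col, 1017 to 1840 in C24 and 526 to 816 in F1. The other 9 summed to 48.0 to 55.2 in Col, 27.4 to 36.0 in C24, and 124, 84.5 and 35.7 in F1 replicates 1, 2 and 3. The part of root tissue in the results below was not tested.

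CHI, the chitinase gene, was far above the filter level in C24 alone. Its signal was 14.3, 13.7 and 11.9 in Col replicates 1 to 3, 180, 180 and 83.7 in C24, and 15.6, 11.3 and 16.4 in F1. The lowest C24 array was 5.10 times the highest F1 array, and the F1 arrays overlapped those of Col. The means were 13.3 ± 1.26 in Col, 148 ± 55.4 in C24 and 14.4 ± 2.77 in F1 (SD, n = 3), so F1 held 9.78% of the C24 signal and 17.9% of the mean of both parents.

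AT5G55450, the lipid transfer protein gene, was well above the filter level in all groups. Its signal was 175, 220 and 195 in Col, and 994, 965 and 608 in C24, with no overlap. In F1 the arrays disagreed, at 194, 281 and 893. F1 replicate 1 lay within the range of Col, and F1 replicate 3 within that of C24. The C24 signal was 4.27-fold that of Col in the fit. F1 differed from Col by 0.90 ± 0.46 in log2 (SE; adjusted p = 0.631 in limma) and from C24 by -1.19 ± 0.46 (adjusted p = 0.304). Both sizes turned on single F1 arrays. Without F1 replicate 3 they were 0.26 and -1.86, and the latter passed (adjusted p = 0.00919, with a range of 0.00919 to 0.598 over 16 alternatives). Without F1 replicate 1 they were 1.35 and -0.74.

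GRX480, the glutaredoxin gene, was steady and dim in Col, at 13.8, 13.3 and 13.5. In C24 it was at 49.8, 70.3 and 41.0, and in F1 at 20.2, 35.3 and 45.7. All F1 arrays lay above all Col arrays, while F1 replicate 3 lay inside the C24 range. The F1 mean of 33.7 ± 12.8 was 100.4% of the mean of both parents. F1 differed from Col by 1.24 ± 0.31 in log2 (adjusted p = 0.179 in limma) and from C24 by -0.71 ± 0.31 (adjusted p = 0.364), neither past the threshold under any of 15 alternatives. Without F1 replicate 1 the second difference was -0.38.

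AT2G44380 encodes a protein with a cysteine- and histidine-rich C1 domain. Its signal in Col, at 3.25, 0.846 and 4.95, was under the filter level on all 3 arrays, and the probe set passed the filter through C24, at 72.4, 67.1 and 39.2. F1 was at 10.4, 16.6 and 8.94, above every Col array and below every C24 array. F1 held 20.1% of the C24 signal and 38.3% of the mean of both parents. The difference from Col was 2.20 ± 0.55 in log2 (adjusted p = 0.182 in limma), and only 0.26 (adjusted p = 0.864) when signals were set to at least 10 before log2. Leaving out any 1 C24 array put the probe set under the filter. The difference from C24, -2.31 ± 0.55, is therefore given without a test.

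AT3G48640, a gene of unknown function, was far under the filter level in Col, at 0.955, 1.17 and 0.690. C24 was at 166, 192 and 126, and F1 at 14.9, 40.6 and 88.5. With Col near the floor, the probe set passed the filter through C24 and, less so, F1. F1 lay between the parents with no overlap on either side, and its arrays spanned 5.96-fold. F1 was higher than Col by 5.16 ± 0.53 in log2 (adjusted p = 0.00255 in limma), a size that rests on Col values near the floor of 1. With a floor of 10 the difference was 1.91 and did not pass (adjusted p = 0.174; range 0.000132 to 0.174 over 15 alternatives). Against C24 the difference was -2.08 ± 0.53 (adjusted p = 0.0901), and -2.70 without F1 replicate 3 (adjusted p = 0.0174; range 0.0174 to 0.271 over 15 alternatives). The parental arrays in these tests were those that chose the gene, so the adjusted p are not independent support.

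PDF1.2b, the defensin gene, had another pattern. Its signal was 19.9, 11.3 and 25.7 in Col, 17.1, 37.0 and 28.6 in C24, and 67.9, 54.4 and 48.9 in F1. The parents overlapped and did not pass the test, with a log2 difference of 0.55 ± 0.35 for C24 over Col (adjusted p = 0.426 in limma), which was 0.22 without Col replicate 2. All F1 arrays lay above all arrays of both parents, at 245% of their mean (57.1 ± 9.77 against 19.0 ± 7.21 in Col and 27.6 ± 9.97 in C24). Its probe set carries the suffix that Affymetrix gives where probes can also match other sequences, so PDF1.2b and its close copies may not be separated.

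**Figure D1:**
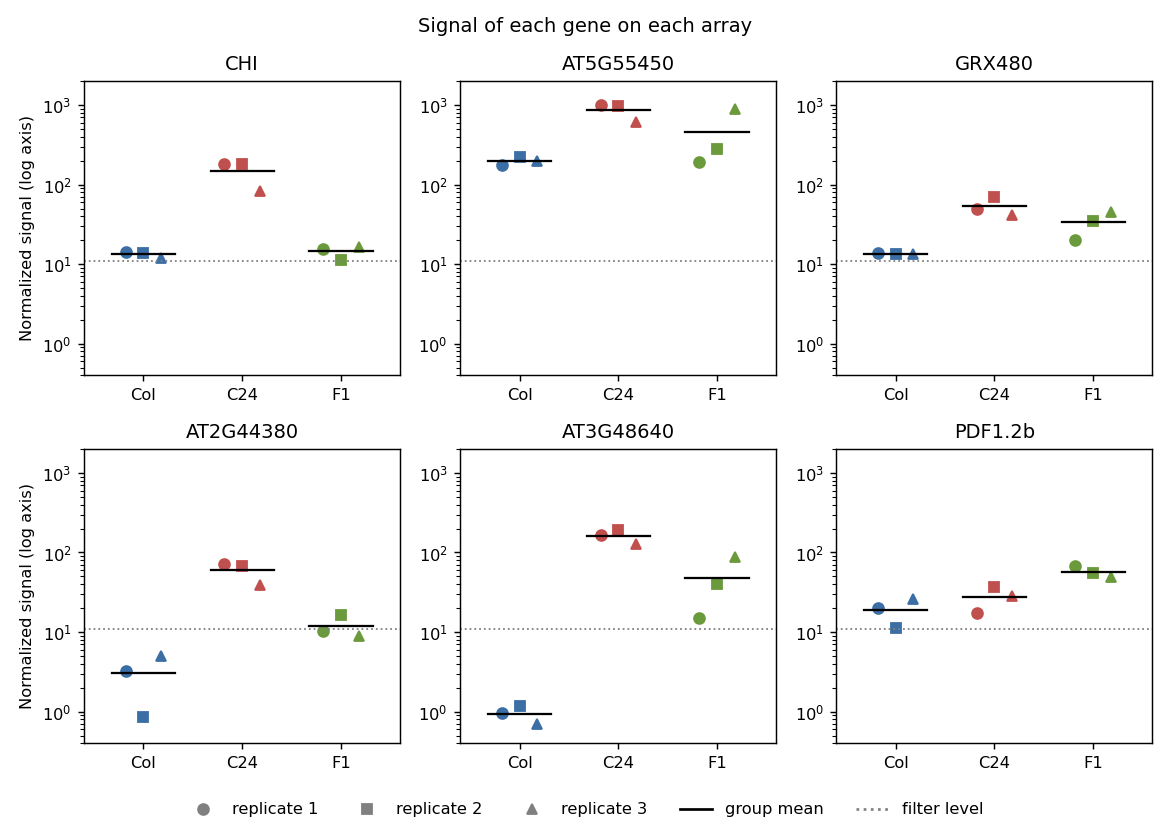
Normalized signal of the 6 genes (vertical log axis, arbitrary intensity units) in Col, C24 and F1; each point is 1 array, the marker shape gives its replicate number, the bar is the group mean and the dotted line the filter level of 11.1. C24 is above Col on every array for all genes but PDF1.2b, and the F1 points spread widely for AT5G55450 and AT3G48640.

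Of the 6 genes, 5 had all C24 arrays above all Col arrays, as the choice of these genes implies, against 13.9% of the tested probe sets. All F1 arrays lay above all Col arrays for GRX480, AT2G44380, AT3G48640 and PDF1.2b, against 6.98% of probe sets. All F1 arrays lay below all C24 arrays for CHI, AT2G44380 and AT3G48640, against 11% of probe sets. The choice favoured these F1 counts as well. It used the parental arrays of the 5 genes and the F1 arrays of CHI and PDF1.2b. By adjusted p, 3.56% of all tested lay higher in C24 than in Col and 4.91% lower, and the 5 genes picked for it were among the former. The share of these calls that were higher in C24 was 42.1%, and 51.8% with a common median or 34.3% with the deposited scaling. Of the 4 genes tested in F1, AT3G48640 was higher than Col, against 0.408% of probe sets, and 0 were lower, against 0.1%. The low Col signal of AT3G48640 was part of its choice, which favoured that call. Against C24, 0 of AT5G55450, GRX480 and AT3G48640 passed in limma, with 1.7% of probe sets higher and 0.377% lower in F1. The unadjusted p of these 3 lay between 0.00271 and 0.0442, and 13% of all tested probe sets had one under 0.05. Low values were favoured here, since the C24 arrays in this contrast were those that chose the genes.

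The place of F1 between the parents is given for each gene, and differences between genes were not tested. With 0 at the Col mean and 1 at the C24 mean on the linear scale, CHI was at 0.00855 ± 0.0206 (SD over 3 F1 arrays), AT2G44380 at 0.159 ± 0.0718, AT3G48640 at 0.293 ± 0.233, AT5G55450 at 0.394 ± 0.578 and GRX480 at 0.503 ± 0.318. Apart from CHI, which was picked by its low F1 signal, these ranges of mean and SD overlapped. CHI and AT2G44380 lay below the midpoint on all 3 F1 arrays. The other genes crossed it, since F1 replicate 3 was at 0.546 for AT3G48640, 0.80 for GRX480 and 1.06 for AT5G55450. F1 replicate 1 was at 0.0867, 0.167 and -0.00384 for the same genes. Without F1 replicate 3 the mean place was 0.166, 0.353 and 0.0615, a fall for all 3 genes that was largest for AT5G55450. Leaving out any 1 array gave 0.166 to 0.396 for AT3G48640, 0.353 to 0.671 for GRX480 and 0.0615 to 0.593 for AT5G55450. Against the mean of the parents, 0.0377% of the tested probe sets were called, CHI among them by the low F1 signal it was picked on. No probe set was called there without C24 replicate 2 or without any 1 F1 array.

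**Figure D2:**
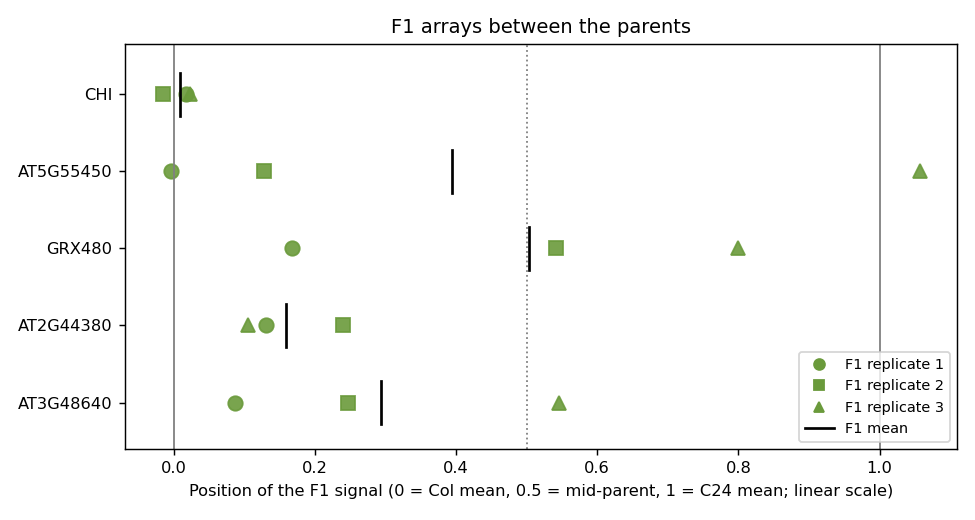
Place of each F1 array between the parents for the 5 genes higher in C24 (horizontal axis, linear scale, 0 the Col mean and 1 the C24 mean, dotted line the mid-parent value); marker shapes are replicates and the bar is the F1 mean. CHI sits at the Col value on all arrays, AT2G44380 stays below 0.25, and F1 replicate 3 reaches 0.546 to 1.06 for AT3G48640, GRX480 and AT5G55450.

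The spread between replicates, which the choice of the genes did not use, was set beside that of all tested probe sets. In F1 the SD of log2 signal was 1.29 for AT3G48640 and 1.15 for AT5G55450, values reached by 0.798% and 1.10% of the tested probe sets. For GRX480 it was 0.60, reached by 7.12%. For CHI it was 0.30 and for AT2G44380 0.46, reached by 32.3% and 13.3%. Replicate 3 was the highest and replicate 1 the lowest F1 array for AT5G55450, GRX480 and AT3G48640, an order that 19.1% of all tested probe sets and 21.5% of the 567 called higher in C24 also had. A ratio of at least 4 between F1 replicates 3 and 1 was rarer, at 0.578% of tested probe sets, and was met by AT5G55450 (4.60) and AT3G48640 (5.96). The same F1 replicate 3 had the lowest sum of the root markers other than PYK10 but the highest PYK10 signal, and with PYK10 the sums were 649, 706 and 852 in F1 replicates 1, 2 and 3. The part of these differences was not tested.

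In C24, replicate 3 was the lowest array for all 5 genes, as for 34% of tested probe sets, with the highest array at 1.52 times (AT3G48640) to 2.15 times (CHI) the lowest. In Col, AT2G44380 varied most, with an SD of 1.196 in log2, at signals under the filter level. GRX480 varied least, with an SD of 0.032 in Col that 98.4% of tested probe sets reached. PDF1.2b ran otherwise, with C24 replicate 1 its lowest C24 array and F1 replicate 3 its lowest F1 array.

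The likeness of profiles was measured as the root mean square difference of log2 signal over the 9 arrays, after taking out each probe set's mean. Among the 15 pairs of the 6 genes, AT5G55450 and GRX480 were the closest, at 0.41, and AT3G48640 and PDF1.2b the farthest, at 2.86. Among all tested probe sets that name 1 gene, those closest to AT5G55450 were AT1G65500 (0.29), AT5G39670, which encodes a calcium-binding EF-hand protein (0.34), and GRX480. AT1G65500 was at 18.2, 21.2 and 64.2 in F1, and AT5G39670 at 16.3, 17.5 and 47.4, so both also had F1 replicate 3 high. Closest to CHI were AT1G10340, an ankyrin repeat protein gene (0.68), AT5G44570 (0.70) and the calmodulin-like gene CML41 (0.72). AT1G10340 was at 39.2 to 51.9 in C24 and 4.58 to 10.8 in F1, and CML41 at 46.0 to 55.0 in C24 and 8.60 to 13.8 in F1.

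GRX480 was closest to AT1G26530 (0.31), AT4G27050 (0.32) and AT5G19100 (0.34). AT4G27050 was at 70.2 to 92.8 in Col, 336 to 350 in C24 and 184 to 258 in F1, with less spread in F1 than GRX480. AT2G44380 was closest to AT5G26280 and AT3G20370, both genes of TRAF-like proteins (0.60 and 0.79), and to JAL33, a jacalin lectin gene (0.62). JAL33 was at 67.6 to 101 in Col, 1068 to 1377 in C24 and 250 to 463 in F1. AT3G48640 was closest to AT1G63540 (0.88), AT4G29200 (0.92) and the receptor kinase gene AT1G61500 (1.08). These distances were larger than those of the other genes. The measure grows with the size of a gene's own differences, which were largest for AT3G48640, and this also bears on its distance from PDF1.2b. PDF1.2b was closest to AT1G32375 (0.37), AT5G17350 (0.49) and AT4G24350 (0.50), the last at 50.8 to 113 in Col, 59.1 to 88.4 in C24 and 113 to 177 in F1. Closeness of this kind takes in the shared differences between groups and array effects.

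**Figure D3:**
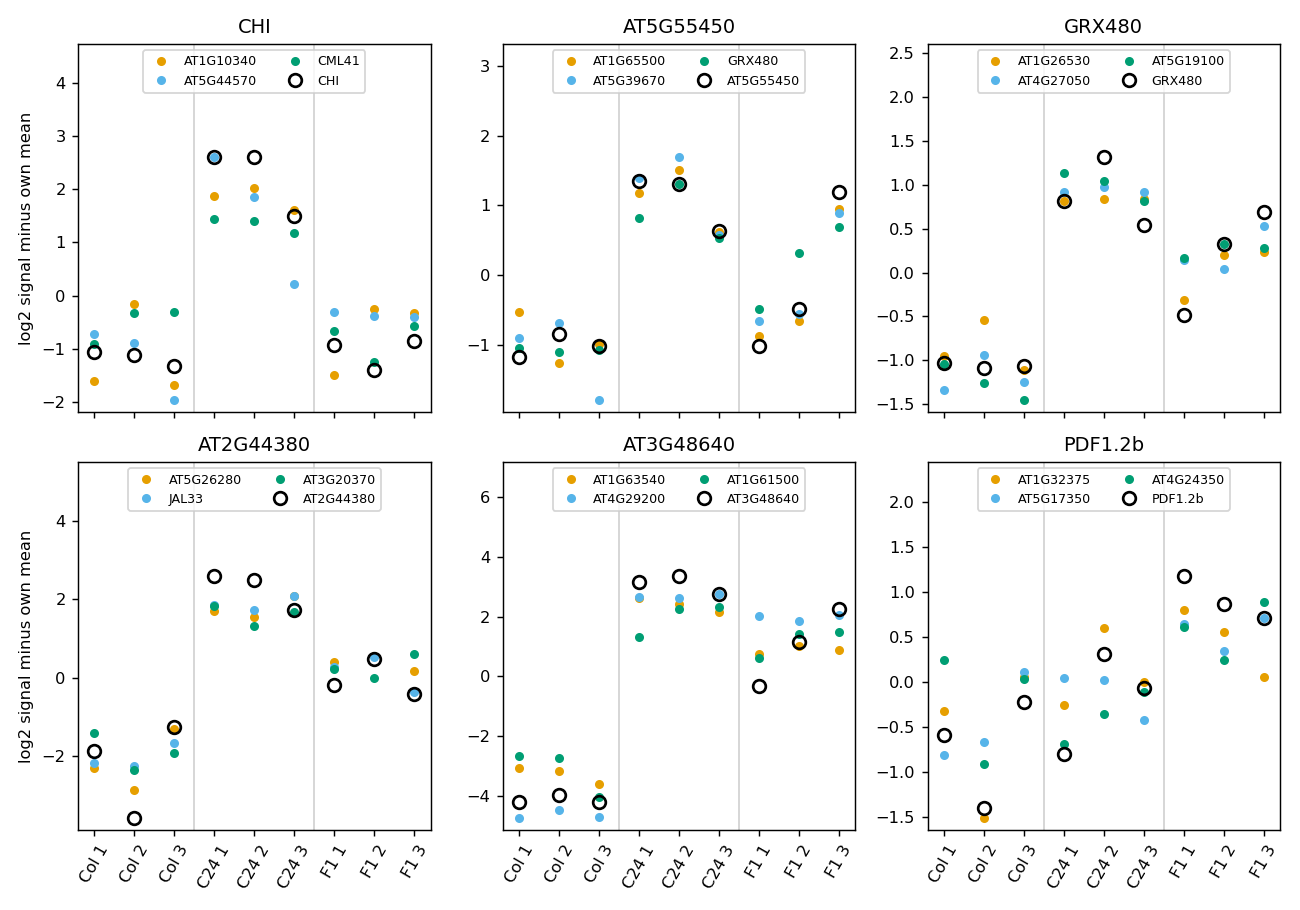
Log2 signal minus the probe set's own mean (vertical axis) on each of the 9 arrays (horizontal axis) for each gene (open black circles) and the 3 named probe sets with the smallest root mean square difference from it (filled points). The genes near CHI stay low on all F1 arrays, while those near AT5G55450 are high in F1 replicate 3.

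Of 64 loci listed as pathogen- or salicylate-induced, a probe set named 15, and 10 of these passed the filter, among them the 5 genes above. Of the other 5, 0 were higher and 1 was lower in C24, beside 3.56% and 4.91% of all tested probe sets. An unadjusted limma p under 0.05, in either direction, was found for 4 of them, the lower one included, and for 21.6% of all tested. The 5 had a median log2 difference of 1.24, against 0.033 over all tested probe sets. AT5G52750 and AT5G52760 encode proteins with a heavy-metal-associated domain. The first was at 31.9, 56.7 and 19.4 in Col, 98.7, 164 and 49.7 in C24, and 40.2, 66.0 and 184 in F1. The second was at 4.64, 11.4 and 0.534 in Col, 27.8, 48.4 and 23.5 in C24, and 6.53, 13.3 and 44.9 in F1. Its log2 difference between C24 and Col, 3.07 ± 0.88, rests on Col signals near or under the filter level. For both, F1 replicate 3 was the highest F1 array, and neither passed in C24 against Col (adjusted p = 0.177 and 0.0630 in limma).

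WRKY53, a transcription factor gene of leaf ageing and defence, overlapped in all groups, at 6.62 to 49.1 in Col, 8.69 to 76.9 in C24 and 35.7 to 85.4 in F1. AT3G28540, an AAA-type ATPase gene, was at 3.63 to 17.8 in Col, 18.1 to 24.7 in C24 and 9.79 to 11.9 in F1. The lower call was AT3G22240, at 1634, 2866 and 2562 in Col, 17.9, 41.7 and 29.2 in C24, and 1103, 2023 and 3583 in F1. It was lower in C24 than in Col and higher in F1 than in C24, by -6.36 ± 0.43 and 6.16 ± 0.43 in log2 (adjusted p = 1.6e-05 and 4.2e-05 in limma). For a gene dim in C24, expression and a sequence difference from probes designed on Col cannot be told apart. With no filter 3 of the listed genes apart from the 5 were called in C24 against Col, and 2 with a floor of 10, with a common median or without Col replicate 2. Among those under the filter, AT1G13470 (0.848 to 1.22 in Col, 18.8 to 28.3 in C24) and AT3G51330 (0.659 to 0.919 and 9.13 to 23.7), named after their values were seen, were above Col on all C24 arrays. AT1G13470 was at 1.26, 0.588 and 11.5 in F1, and AT3G51330 at 8.35, 0.846 and 1.26. Of the others under the filter, AT5G59670 also had all C24 arrays above Col, while AT1G51890 and AT3G13950 overlapped. All C24 arrays lay above all Col arrays for 13.9% of the tested probe sets.

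Of 35 loci of salicylate synthesis and signalling, 4 were named and 1, SAG101, was tested. SAG101, a partner of the immune regulator EDS1, was at 11.9 to 29.1 in Col, 25.0 to 36.3 in C24 and 15.5 to 32.6 in F1, with a log2 difference of 0.64 between C24 and Col (adjusted p = 0.364 in limma). Marker genes such as PR1 and the enzyme gene ICS1 are not named by a probe set here and were not analysed. Of 42 jasmonate and ethylene loci, 5 were named and 2 tested, PDF1.2b and PDF1.2 (AT5G44420). PDF1.2, a near copy of PDF1.2b, was dim throughout, at 9.39 to 15.5 in Col, 9.59 to 18.8 in C24 and 14.6 to 22.9 in F1. Its F1 mean was the highest of the 3, as for PDF1.2b, but it did not pass against Col (log2 0.67 ± 0.35, adjusted p = 0.636). THI2.1, PDF1.4 and LCR67 were under the filter.

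**Figure D4:**
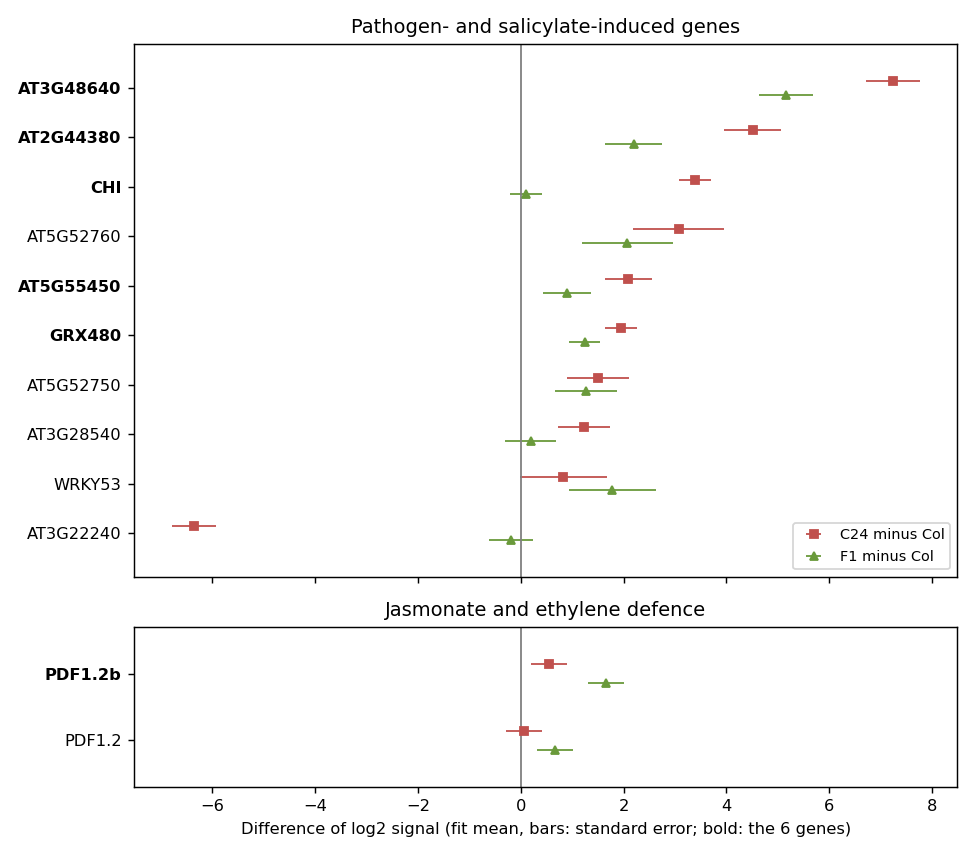
Fitted difference of log2 signal (horizontal axis) for C24 minus Col and F1 minus Col in the tested genes of the pathogen- and salicylate-induced list and of the jasmonate and ethylene list; bars are standard errors and the 6 genes are in bold. AT3G22240 stands alone far below 0 in C24, and PDF1.2b and PDF1.2 have larger differences in F1 than in C24.

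The families of 4 members were then set beside them. Of 15 named chitinase genes, 8 were tested. Apart from CHI, 1 of 7 was higher in C24 (2 without Col replicate 2), beside 3.56% of all tested probe sets, namely AT4G01700, at 30.03 to 36.3 in Col, 65.7 to 99.1 in C24 and 61.9 to 69.6 in F1 (C24 2.24-fold over Col, adjusted p = 0.00422 in limma). In F1, AT4G01700 overlapped C24, where CHI did not. Its difference from Col in F1 did not pass (log2 0.93 ± 0.19, adjusted p = 0.0896). The genes AT2G43580, AT2G43590, AT2G43600, AT2G43610 and AT2G43620 lie in a row after CHI. Of these, AT2G43590, AT2G43610 and AT2G43620 were tested and 0 passed, with log2 differences between C24 and Col of -0.46 to 0.32. AT2G43580, next to CHI, was under the filter, at 2.57 to 5.59 in C24. On the other side AT2G43560 was lower in C24, at 877 to 1074 against 1364 to 1745 in Col (log2 -0.64 ± 0.14, adjusted p = 0.0221), a call lost with the deposited scaling (0.0888), with a common median (0.265) and when Col replicate 2, Col replicate 3, C24 replicate 1 or C24 replicate 3 was left out (range 0.0200 to 0.265 over 16 alternatives).

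Of 17 named glutaredoxins of the CC type, a class found in land plants, 13 were tested. Apart from GRX480, 0 of 12 passed in C24 against Col in limma, 3 had an unadjusted p under 0.05 (21.6% of all tested probe sets did), and the median log2 difference was 0.23. The count was 1 without Col replicate 2. ROXY2 had the next largest difference (log2 1.89 ± 0.54, adjusted p = 0.0614), close to that of GRX480 (1.95 ± 0.31). The Col arrays of ROXY2 were at 4.03, 20.8 and 5.70 and its C24 arrays between 27.9 and 29.6. AT2G47880, known as a signal of nitrogen demand that travels from shoot to root, was at 122 to 140 in Col, 146 to 241 in C24 and 61.8 to 95.8 in F1. It was lower in F1 than in C24 (log2 -1.16 ± 0.23, adjusted p = 0.0294), a call lost with no filter (0.0773) and without Col replicate 2, C24 replicate 1 or 3 or any 1 F1 array (range 0.00997 to 0.104 over 16 alternatives).

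Of 15 named small lipid transfer protein genes, 7 were tested. Apart from AT5G55450, 0 of 6 were higher and 1 was lower in C24, beside 3.56% and 4.91% of all tested. The latter, AT1G62510, was at 1137 to 1616 in Col, 150 to 346 in C24 and 474 to 877 in F1 (log2 -2.59 ± 0.31 for C24 minus Col, adjusted p = 0.000586 in limma). AT5G48490, of the family of the systemic resistance protein DIR1, was at 818 to 1556 in Col and 1589 to 2140 in C24 (log2 0.63, adjusted p = 0.131). Of 10 named defensin genes 4 were tested. Apart from PDF1.2b, 0 of 3 passed in C24 against Col, beside 3.56% higher and 4.91% lower of all tested. LCR68 and LCR69, bright in every group at 1005 to 1477 and 2036 to 3145, had log2 differences between F1 and Col of 0.20 and 0.03, and neither passed. LCR68 was at 1005 to 1032 in Col and 1260 to 1477 in C24 (log2 0.41 ± 0.12, adjusted p = 0.0680 in limma). The count in C24 against Col was 1 with the deposited scaling, a common median or a replicate block, and 0 to 1 when 1 array was left out.

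The nearest named genes on either side of AT5G55450, GRX480, AT2G44380, AT3G48640 and PDF1.2b were looked up by their order on the chromosome. These 10 lay up to 9 genes away, and the neighbours of CHI, given above, are not counted among them. Of the 10, 6 were tested and 0 passed in C24 against Col in limma, beside 3.56% higher and 4.91% lower of all tested probe sets. An unadjusted p under 0.05 was found for 1 of the 6, and for 21.6% of all tested. The largest difference was that of AT3G48600, at 23.1 to 39.4 in Col and 46.6 to 62.8 in C24 (log2 0.95 ± 0.27, adjusted p = 0.0616). AT2G44370, next to AT2G44380, was at 0.409 to 4.78 on all arrays, under the filter.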

How the data were processed

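Each deposited column holds 1 array's probe-set intensity values, on a linear scale. GCOS is the tool in the submitters' processing notes, and no setting of it is stated there. The mean of each column without the outer 2% at either end was 150.01 to 150.02, so the authors' values had been scaled to one level. Their median log2 values spanned 0.24, so 22746 probe sets, without 64 controls, were quantile normalized (limma 3.58.1, R 4.3.3), set to at least 1 and put on the log2 scale. Probe sets under the 30th percentile of mean log2 signal were not tested, and 15922 were. All contrasts came from 1 limma fit (lmFit, eBayes with trend, Benjamini-Hochberg over all 15922, threshold 0.05). The mean of the parents was taken on the linear scale. The fit was tested on simulated data.

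Names came from the platform annotation, updated through Entrez numbers to TAIR10.1. Of the probe sets, 13513 named 1 gene, 503 several and 8730 none. Multi-gene probe sets were not used, and the brightest stood for a gene with several. No probe, promoter or protein sequence was used. Members and lists were chosen with earlier results of these data known. Named genes were the 6 members, up to 4 per list (called genes first, then the smallest p), the 3 closest profiles and the nearest named neighbours; a few list genes beyond these were named after their values were seen. With 3 arrays a group, precision is limited by their number.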

Additional observations from a re-analysis of the deposited data

How the results depend on the processing

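Other scalings (the deposited one, a common median), filters (none, the 50th percentile), a floor of 10, no variance trend, a replicate block and leaving out each array in turn were tried. Of 418 values of the 6 genes, 406 kept their side of the threshold or moved by less than the spread between replicates, 12 did not, and 0 reversed a call. Those 12 include the 3 adjusted p given with the results. They also include 3 of AT2G44380 against C24 that changed their side of the threshold. These were with a floor of 10, without Col replicate 2 and without Col replicate 3. The log2 difference was -2.26, -2.29 and -2.33 there, against -2.31. It is given without a test, since it rests on the C24 values that chose the gene. With a floor of 10 the C24 minus Col difference was 2.52 for AT2G44380 and 3.99 for AT3G48640 in log2, against 4.51 and 7.24, and F1 was placed at 0.0472 for AT2G44380. With the mean of the parents taken on the log2 scale, F1 minus that mean was -1.59 for CHI, -0.06 for AT2G44380 and 1.54 for AT3G48640, against -2.42, -1.38 and -1.09 on the linear scale, so that AT3G48640 lay below the one and above the other.

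Calls over all probe sets were 1348 for C24 against Col, 81 for F1 against Col, 331 for F1 against C24 and 6 against the mean of the parents. Leaving out 1 array gave 803 to 1320, 38 to 79, 169 to 340 and 0 to 5. C24 against Col fell to 803 without Col replicate 2 and 856 without C24 replicate 2, F1 against Col to 38 to 42 without any 1 F1 array, and F1 against C24 to 203, 175 and 169 without C24 replicate 2, F1 replicate 1 and F1 replicate 2. F1 against C24 gave 214 with the filter at the 50th percentile. With a replicate block C24 against Col gave 1735, F1 against Col 120 and F1 against C24 448. The count against the mean of the parents was 3 with no filter, 2 with the filter at the 50th percentile, 34 on the log2 scale and 0 with a replicate block, where 1123 had an unadjusted limma p under 0.05. Deviations of arrays with the same replicate number correlated at 0.013 to 0.494, above 0.1 in 8 of 9 pairs, and those with different numbers at -0.345 to 0.205. Replicate 1 stood apart in all 3 groups. Its arrays correlated with each other at 0.455 to 0.494, and with arrays of other numbers at -0.345 to -0.098. A shared batch of replicate 1 was not tested. The labels name no shared batch, a pairing was taken only if all 9 pairs passed 0.1, and 5 of 9 arrays correlated best with their own number, so the numbers were not taken to pair the samples. The replicate block changed no tested call of the 6 genes against a single parent. It ended the call of CHI against the mean of the parents. In C24 against Col it gave 1 called glutaredoxin, 1 defensin and 2 lipid transfer protein genes beside the 6, against 0, 0 and 1.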
